A study of Mus musculus with 16 samples.

Results

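The promoters described here belong to 240 genes at which RNA polymerase II (Pol II) was called at the start in mouse embryonic fibroblasts (MEFs) lacking Atxn7l3 and not near it in wild-type MEFs. They were selected on measured values. A protein-coding gene of GENCODE M21 on an autosome was taken if a Pol II peak of the knockout (KO) library lay within 1000 bp of its transcription start site (TSS) and no Pol II peak of the wild-type (WT) library lay within 5000 bp of it. Of the 20807 autosomal protein-coding genes, 240 met both conditions, which is 1.15%. The genome holds 21938 such genes when the sex chromosomes are counted. The KO peak and the absence of the WT peak are what defined these genes, so both are given below as a description.

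The study asked where histone H2B monoubiquitylation (H2Bub1) and Pol II lie on chromatin when ATXN7L3 is missing. Chromatin immunoprecipitation and sequencing was done with antibodies against H2Bub1 and against RPB1, the largest Pol II subunit. WT cells were Atxn7l3+/+ and KO cells Atxn7l3-/-, both of the strain DBA/2 x C57BL/6, and the null allele came from a KOMP targeting construct with LoxP sites flanking a run of exons. The MEFs of both genotypes were grown from E10.5 embryos after the head and the gut had been taken away, and the mESCs of both genotypes came from blastocysts and were kept with LIF, PD0325901 and CH99021, with feeder cells removed before use. MEFs were plated from single embryos and are a mixed primary culture of the trunk, and the KO cultures held many rounded cells that the study calls MEF-like. Each combination of genotype, cell type and antibody has 1 library. With no replicates, none of the differences below could be set against replicate spread, and they carry no p-value. Intervals are exact Clopper-Pearson or binomial 95% intervals and cover counting error over genes only. Reads per library are unknown, and a change in the number of cells of a type cannot be told apart from a change of Pol II per cell.

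ATXN7L3 is the adaptor without which USP22, USP27X and USP51, a set of related deubiquitylases, cannot take ubiquitin off H2B. H2Bub1 is laid down behind elongating Pol II and marks the bodies of transcribed genes, while Pol II peaks at gene starts reflect recruitment and pausing. Mesothelium, which contributes several of the genes below, is the flat epithelium of mesodermal origin that lines the body cavities and covers the organs in them, and it combines epithelial genes such as keratins and uroplakins with mesodermal transcription factors such as WT1.

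The WT MEF list held 45870 Pol II peaks and the KO list 32232, so the list without peaks at these starts was the longer one. Of 19 fibroblast genes, 18 had a Pol II promoter peak in each of the WT and KO MEF lists, and the exception was Postn, with 26.6-fold in WT and no peak in KO. The summed promoter fold of the fibroblast genes was 441 in WT and 237 in KO, and 2 of the 18 had the higher fold in KO. The part of this difference in the values below was not tested. Atxn7l3 itself had promoter peaks in both MEF libraries, of 20.9-fold in WT and 23.4-fold in KO, and peaks over its 3' end in both. Over the stretch from exon 2 to exon 12 (chr11:102291898-102295059), which the study's construct flanks with LoxP sites, Pol II peaks covered 19.3% in WT and 10.9% in KO MEFs, and H2Bub1 peaks 21.6% and 19.6%. With so little called in WT, the MEF lists do not check the genotype labels. In mESCs H2Bub1 peaks covered 100% of the stretch in WT and 13.0% in KO. On the Y chromosome, Uty, Kdm5d, Ddx3y and Eif2s3y had promoter peaks in WT MEFs (4 of 4) and none in KO MEFs. Sex and genotype of the MEF libraries therefore cannot be told apart, and all members are autosomal. The opposite group, promoters with a WT peak and no KO peak within 5000 bp, held 778 genes or 3.74%.

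Promoter sequences are shown for 4 of the genes, as examples from the mesothelial, epithelial and macrophage lists that differ in base composition. Over the members with an entry, G and C made up between 36% and 83.3% of the promoter, so the lower part of the range is not shown. The bases are the 250 before the RefSeq start, read 5' to 3' on the strand of the gene, from build GRCm38.p6. They are Upk3b (chr5:136038246-136038495, plus strand), Bnc1 (chr7:81992300-81992549, minus strand), Spint1 (chr2:119237110-119237359, plus strand) and Itgam (chr7:128062390-128062639, plus strand). Capitals mark the letters GGGCGG (the GC box), GGAATG (bound by TEAD factors) and TGACNNNGC (the core of the antioxidant response element), each on either strand.
Upk3b: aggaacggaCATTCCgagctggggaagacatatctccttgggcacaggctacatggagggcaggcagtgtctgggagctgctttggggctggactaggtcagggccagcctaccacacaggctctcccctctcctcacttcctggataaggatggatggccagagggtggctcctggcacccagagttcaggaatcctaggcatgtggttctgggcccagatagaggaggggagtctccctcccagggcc
Bnc1: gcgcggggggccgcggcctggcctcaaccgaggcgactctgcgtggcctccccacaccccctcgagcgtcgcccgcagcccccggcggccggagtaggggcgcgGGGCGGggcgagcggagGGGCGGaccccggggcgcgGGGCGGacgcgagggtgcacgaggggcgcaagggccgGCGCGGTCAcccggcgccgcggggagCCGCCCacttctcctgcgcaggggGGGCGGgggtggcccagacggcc
Spint1: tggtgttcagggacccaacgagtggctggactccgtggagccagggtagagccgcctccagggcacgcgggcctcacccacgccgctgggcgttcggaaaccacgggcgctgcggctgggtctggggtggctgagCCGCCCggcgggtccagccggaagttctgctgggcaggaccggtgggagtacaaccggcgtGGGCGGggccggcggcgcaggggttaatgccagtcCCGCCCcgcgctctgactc
Itgam: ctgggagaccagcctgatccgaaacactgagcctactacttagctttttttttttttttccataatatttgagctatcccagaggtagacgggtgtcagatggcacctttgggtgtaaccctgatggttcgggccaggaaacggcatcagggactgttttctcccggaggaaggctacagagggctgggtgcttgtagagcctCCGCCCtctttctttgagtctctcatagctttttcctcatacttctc
Within 300 bases, from 250 before to 50 after the start, the Upk3b promoter was 58.7% G and C with a CpG content of 0.0795 of that expected from its bases, and it held the TEAD letters and no GC box. The Bnc1 promoter was 83.3% G and C, had 0.980 of the expected CpGs and held several GC boxes. The Spint1 promoter was 69.7% G and C with 0.780 of the expected CpGs, and the Itgam promoter 50.3% with 0.316.

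The KO fold of a peak is its pileup over the local background as the peak caller gave it. Over the 240 promoters it ran from 2.25 to 38.6 with a median of 4.37 (4.05 to 4.83). The 10576 promoters with a Pol II peak in both MEF libraries had a KO median of 11.8, and the promoters losing it a WT median of 4.40. Over all peaks of the KO list the median was 4.18, so the gained peaks lay at the middle of that list and under most promoters with Pol II in both libraries. Only 24 reached 10-fold, and 143 stayed under 5-fold. The summits lay a median of 116 bp downstream of the TSS, close to the 87 bp of promoters with Pol II in both libraries, and 185 of 240 lay within 500 bp of the TSS. For 15 genes the summit lay outside the window and only the flank of the peak reached it, as at Slc13a4, whose summit stood at -2099 bp from the TSS. The genes had a median length of 28.4 kb (24.3 to 42.4), against 17.6 kb over all autosomal genes. The nearest WT peak was a median of 38.7 kb away, over 100 kb away for 58 genes and under 10 kb for 33.

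Upk1b, the uroplakin partner tetraspanin of urothelium and mesothelium, stood far above the others. It had no promoter peak in WT MEFs, WT mESCs or KO mESCs, and a peak of 38.6-fold in KO MEFs (gene chr16:38773184-38800328, minus strand). The peak was 11204 bp wide with its summit 181 bp after the TSS. Bnc1 (18.5-fold), Tcf21 (18.2-fold), Upk3b (18.1-fold) and Fam84a (17.4-fold) came next. Bnc1 and Tcf21 encode transcription factors, basonuclin of epithelial and germ cells and a bHLH factor of visceral mesenchyme and epicardium. They were followed by Gdf6 at 15.7-fold, a BMP-family ligand, 9330182L06Rik at 15.1-fold, Soga3 at 14.4-fold, Lrrn4 at 14.2-fold and Sh3tc2 at 13.5-fold. None of these 10 genes had a Pol II promoter peak in WT mESCs, and 9330182L06Rik alone had one in KO mESCs, of 3.07-fold. At the other end stood Ccdc194 with 2.25-fold.

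**Figure D1:**
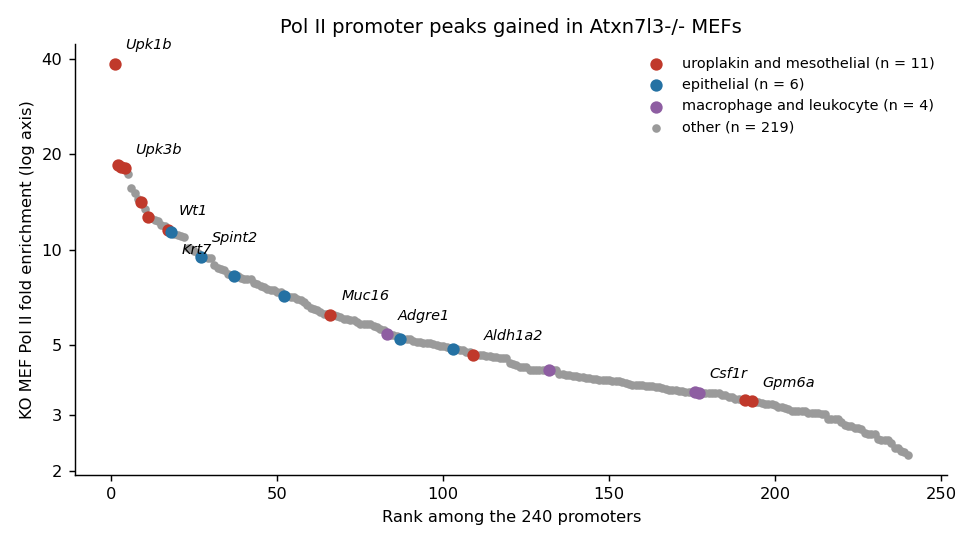
KO MEF Pol II fold enrichment (log axis) of the 240 promoters by rank, with members of the uroplakin and mesothelial, epithelial, and macrophage and leukocyte lists in colour and all others in grey. The mesothelial genes gather at the left, from Upk1b at 38.6 downwards, with 7 of 11 at 10-fold or more, while the 4 macrophage genes lie between 3.53 and 5.40.

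The distance condition of 5000 bp cut through a continuous range. Just inside it were Ccdc194, with a WT peak 5010 bp away, and Plgrkt and Cd274, which share 1 KO peak of 3.02-fold and had WT peaks 5036 and 5101 bp away. Just outside were Eid3 at 4777 bp, Ankrd37 at 4754 bp and Tmem221 at 4676 bp, with KO folds of 3.38, 4.14 and 6.33. The 240 genes rest on 228 distinct KO peaks, because 23 genes share a peak with a neighbour whose start lies close by. Itgam shares its peak with Gm49368, Lcp1 with Lrrc63, Crb3 with Slc25a23 and Lsr with Fam187b, and the lists cannot say which of the neighbours the Pol II belongs to.

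Genes of the mesothelium were the most frequent of the gene lists that were counted. Of the 21 genes of the uroplakin and mesothelial list, 11 were among the gained promoters, which is 52.4% (29.8 to 74.3) against 1.15% of all genes. The list was drawn up with earlier results of these data known, so the count is no independent evidence. The median KO fold of the 11 was 12.7, and 5 of them were among the 10 highest of all 240. After Upk1b, Bnc1, Tcf21, Upk3b and Lrrn4 came Rspo1 with 12.7-fold, a secreted enhancer of Wnt signalling, and Wt1 with 11.6-fold, the Wilms tumour transcription factor of mesothelium, gonad and kidney. Muc16 (6.23-fold) encodes the surface mucin known as CA125, and Aldh1a2 (4.66-fold) the enzyme that makes retinoic acid. Nkain4 (3.35-fold) and Gpm6a (3.32-fold) were the weakest. None of the 11 had a promoter peak in WT or KO mESCs, which 56 of all 240 (23.3%) had in at least 1 of them.

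The remaining 10 genes of that list showed no single pattern. Msln, the gene of mesothelin, had a KO peak of 10.2-fold but a WT peak 2187 bp away, so it missed the distance condition. Cldn15 had promoter peaks in both, with 6.60-fold in WT and 13.0-fold in KO, while Tbx18 had 9.50 and 6.20 and Efemp1 3.40 and 3.30. Slpi had a WT peak of 2.98-fold and none in KO. Upk1a, Upk2, Upk3a, Calb2 and Podxl had no promoter peak in either MEF library, so of the 6 uroplakins the pair known from mesothelium was called and the others were not. The summed promoter fold of the 21 genes was 22.5 in WT and 182 in KO MEFs. A missing peak adds nothing to such a sum, and the rule left the 11 gained genes without a WT peak. The selection therefore fixed much of this gap.

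**Figure D2:**
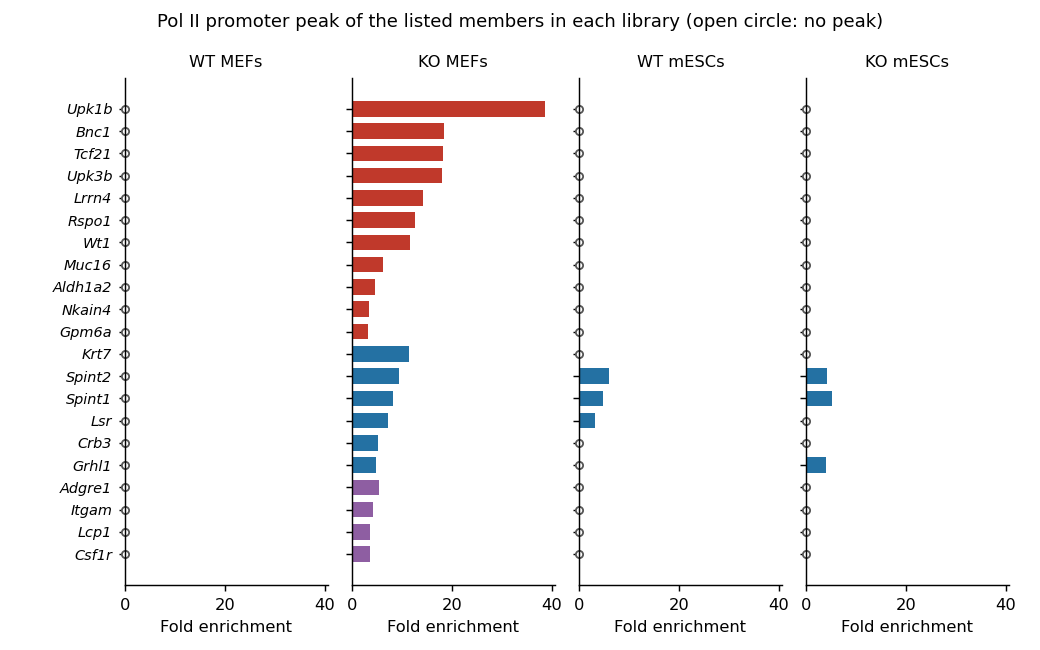
Pol II promoter fold enrichment of the members on the mesothelial (red), epithelial (blue) and macrophage (purple) lists in the 4 Pol II libraries, 1 library each, with an open circle where no peak was called. All 21 bars stand in the KO MEF panel from 3.32 to 38.6, the WT MEF panel is empty by the rule, and in mESCs only Spint2, Spint1, Lsr and Grhl1 have a bar.

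Of 36 epithelial genes, 6 were gained, which is 16.7% (6.37 to 32.8). Krt7, a keratin of simple epithelia and mesothelium, had 11.3-fold. Its summit lay 1446 bp after the annotated start. Spint2 (9.50-fold) and Spint1 (8.24-fold) encode Kunitz inhibitors of membrane serine proteases. Lsr (7.14-fold) encodes the angulin of tricellular junctions, Crb3 (5.22-fold) an apical polarity protein, and Grhl1 (4.86-fold) a Grainyhead transcription factor. The defining genes of most epithelia were not among them. Cdh1, Epcam, Krt8, Krt18, Krt19, Ocln, Grhl2, Esrp1 and Dsp had no promoter peak in either MEF library, as did 23 of the 36 genes in all. Of the 6 with a peak in both, 4 had the higher fold in KO, among them Jup with 22.4-fold in WT and 35.1-fold in KO and Esrp2 with 9.56 and 17.7. The summed promoter fold of the list was 57.1 in WT and 125 in KO MEFs. Much of this gap was fixed by the selection, because the rule left the 6 gained genes without a WT peak.

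Genes of macrophages formed a further group. Of 20 macrophage and leukocyte genes, 4 were gained, which is 20% (5.73 to 43.7). Adgre1, the gene of the surface protein F4/80, had 5.40-fold, Itgam, integrin alpha M, 4.17-fold, Lcp1, L-plastin, 3.55-fold, and Csf1r, the receptor of macrophage colony-stimulating factor, 3.53-fold. Unlike on the mesothelial list, where 4 of 21 had a promoter peak in WT MEFs, 10 of 20 had one in WT MEFs. All 10 had one in KO too, and 7 of them had the higher fold in KO. Tyrobp had 2.41-fold in WT and 6.30-fold in KO, Spi1, the myeloid master regulator, 4.93 and 8.42, and Vav1 3.76 and 7.88, while Cd14 had 10.8 and 6.85 and Cd68 19.9 and 19.5. Cd53 and Mpeg1 had KO peaks with a WT peak 1332 and 2658 bp away. Ptprc, Fcgr3, Coro1a and Cd52 had no promoter peak in either. The summed fold was 64.7 in WT and 103 in KO MEFs. Part of this gap was fixed by the selection, because the rule left the 4 gained genes without a WT peak. The part of a differing share of macrophages in these values was not tested. Only 2 of the 4 remained when a WT peak at any annotated start of the gene was also barred.

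Reading the 240 names after their values were seen, another 22 genes are known mainly from leukocytes. The group follows no fixed list, and the share of such genes over all autosomal genes was not counted. The KO folds of the 22 ran from 3.26 to 7.47 with a median of 3.90. Clec4d, a C-type lectin, was the highest with 7.47-fold. Cd300lb (4.58-fold), Cd300c2 (4.57-fold), Cd300lf (3.91-fold) and Cd300a (3.68-fold) are neighbours on chromosome 11 and encode paired immune receptors, 4 of the 12 CD300 genes. The group also held Fcgr1, Cx3cr1, Siglec1, Msr1, Nckap1l, Rac2 and Lcp2. No gene of the 22 had a promoter peak in either mESC library, where 56 of the 240 (23.3%) had one. That result depends on which genes were placed in the group. In the body, 16 of the 22 had H2Bub1 in KO MEFs and 1 in WT MEFs. These shares are near those of the 240 genes as a whole (75% and 3.33%).

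Other lists gave few members, and their shares stand against 1.15% of all genes. Lipid and xenobiotic metabolism had 3 of 34, 8.82% (1.86 to 23.7). They were Cyp2s1 (10.1-fold), Lpl, lipoprotein lipase (8.33-fold), and Elovl7, a fatty acid elongase (3.96-fold). The pluripotency list had 2 of 14, 14.3% (1.78 to 42.8), Tfcp2l1 (7.08-fold) and Lin28a (4.31-fold). Gata4 (4.06-fold) stood for the gut and endoderm list (4.55%), Tnnt2, cardiac troponin T (4.18-fold), for the muscle list (5.56%), and Krt7 for the trophoblast list (9.09%). The lipid and pluripotency intervals overlap those of the epithelial and macrophage lists. The erythroid, endothelial, neural, fibroblast, interferon and complement lists had no gained promoter. A WT peak with no KO peak within 5000 bp was found at 4 of 16 endothelial, 4 of 26 interferon, 2 of 20 neural, 1 of 19 fibroblast, 1 of 15 complement and 1 of 10 erythroid genes, against 3.74% of all genes.

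By symbol, the gained promoters were spread thinly over gene families, and the shares below stand against 1.15% of all genes. Solute carriers gave 5 of 372 (1.34%), near that share, with Slc13a4 at 11.2-fold, Slc25a23 at 5.22-fold, Slc11a1 at 4.17-fold, Slc39a4 at 3.8-fold and Slc45a3 at 3.72-fold. Gene models without a name gave 6 of 1765 (0.340%), namely 9330182L06Rik, 4930404H24Rik (6.28-fold), Gm8113 (4.36-fold), Gm49368, Gm49393 and Gm49391, the last pair at 2.50-fold on a peak shared with Ctla2a. The GATA factors gave 2 of 8, Gata4 and Gata5 (2.46-fold). Zinc finger genes named Zfp gave 0 of 388, of which 305 had Pol II in both libraries. Cadherins and protocadherins (0 of 95), interleukins and their receptors (0 of 77), collagens (0 of 43) and claudins (0 of 24) gave none either. Fam84a, Fam83g (10.9-fold), Fam84b (3.99-fold) and Fam83b (3.48-fold) made 4 of 10 FAM83 and FAM84 genes, a family picked out after its values were seen.

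Counted in the same way, after the values were seen, 23 of the 240 genes encode transcription factors, with KO folds from 2.29 to 18.5. The share of transcription factor genes over all autosomal genes was not counted, so the 23 have no background. Besides Bnc1, Tcf21 and Wt1 the 23 included Foxo6 (12.0-fold), Npas4 (10.1-fold), Nfe2l3 (8.71-fold), Tbx20 (8.09-fold), a T-box factor of the heart, Mycn (5.84-fold), and Otx1 (2.29-fold). In KO MEFs 19 of the 23 had H2Bub1 in the body, and in WT MEFs none, compared with 180 and 8 of the 240. In mESCs 6 of the 23 had a promoter peak in at least 1 library, compared with 56 of the 240 (23.3%).

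**Figure D3:**
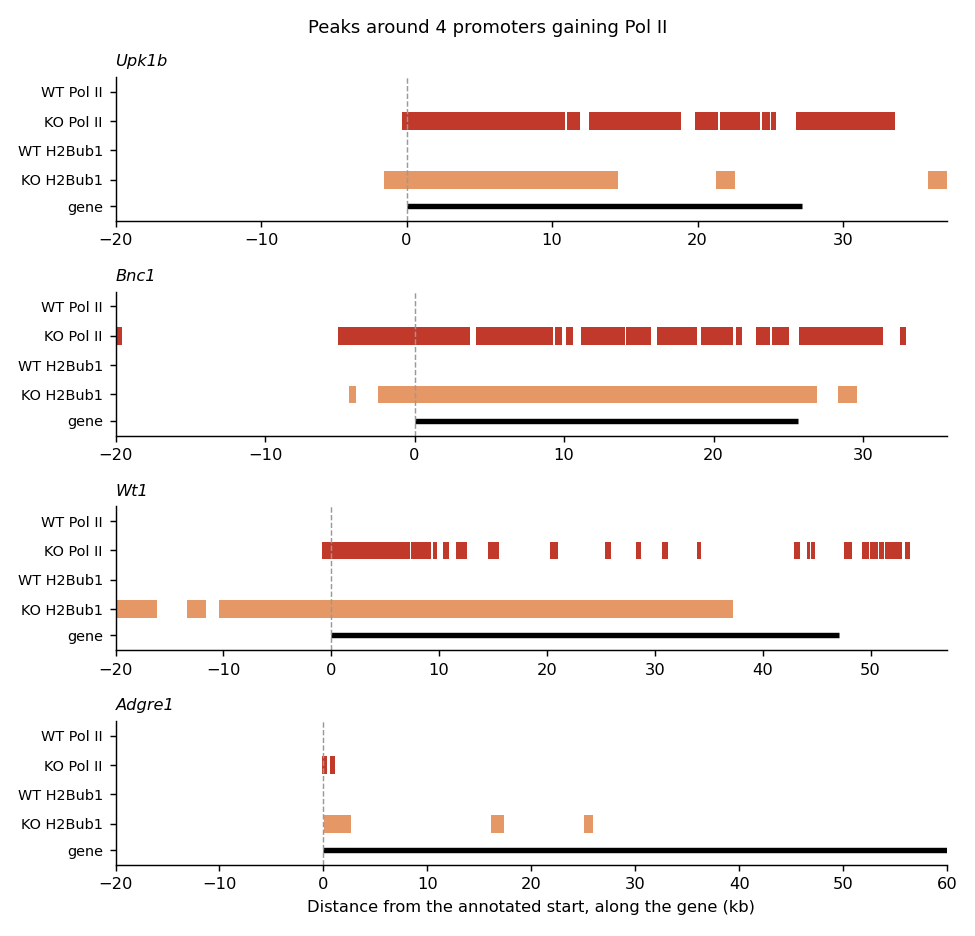
Called peaks of the 4 MEF libraries around Upk1b, Bnc1, Wt1 and Adgre1, as distance along the gene from its annotated start in kb. Bars are peak intervals, and the black line is the gene. WT Pol II and WT H2Bub1 have no peak in any of the 4 windows, Pol II peaks of KO MEFs run through Upk1b and Bnc1, and at Adgre1 they stay near the start.

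Beyond the promoter, Pol II was called in the body (from 1000 bp after the TSS to the gene end) of 119 of the 240 genes in KO MEFs, 49.6% (43.1 to 56.1). In WT MEFs this was 50 genes, 20.8% (15.9 to 26.5). These calls were partly fixed by the selection, because the rule barred WT peaks up to 5000 bp from the TSS and because the selecting KO peak itself ran past 1000 bp into the gene at 60 of the 240 genes. Body Pol II was therefore also counted from 5000 bp on, in the 219 genes longer than that, leaving out the promoter peak of each library. It was then called at 71 genes in KO MEFs, 32.4% (26.3 to 39.1), and at 50 in WT MEFs, 22.8% (17.4 to 29.0). It was KO alone for 37 genes, 16.9% (12.2 to 22.5), against 3.24% of all autosomal genes of that length, and WT alone for 16, 7.31% (4.23 to 11.6), against 13.0%. KO peaks covered more of this stretch at 57 genes and WT peaks at 30. Over all autosomal genes of that length the stretch had a peak at 25.04% in KO and 34.8% in WT. For promoters with Pol II in both libraries the shares were 34.1% and 47.4%, and for promoters losing Pol II 16.5% and 33.7%. These values come from the libraries that chose the genes and are a description. The KO excess was found among the genes at or above the median promoter fold, of which 38.2% (29.1 to 47.9) had a peak in this stretch in KO and 16.4% (9.996 to 24.6) in WT, with more covered in KO at 37 genes and in WT at 7. Among the genes under the median it was 26.6% (18.6 to 35.9) in KO and 29.4% (21.02 to 38.8) in WT, with more covered in KO at 20 genes and in WT at 23.

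Counted from 1000 bp on, Pol II filled most of the body in a small number of genes. Among genes with at least 5 kb of it the shares were largest at Cyp2d22 (96.8%), Upk3b (96.4%), Fam110c (96.0%), Lrrn4 (94.1%) and Upk1b (86.7%). At these genes the selecting peak reached into the body and is part of the share, as at Upk1b, where it was 11204 bp wide. WT MEFs had no Pol II in the same stretch of Cyp2d22, Upk3b, Fam110c and Upk1b, and 6.24% at Lrrn4. Several genes without a WT peak at the start had WT Pol II inside. Lsr had 54.6% of its body covered in WT and 48.4% in KO, Nfe2l3 22.8% and 23.1%, and Csf1r 20.3% and 19.1%. A WT peak lay within 5000 bp of some other annotated start for 27 of the 240 genes. At such genes the rule describes the start of the gene record and not every start.

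H2Bub1, which the rule did not use, was called in the body of 180 of the 240 genes in KO MEFs, 75% (69.0 to 80.3), and of 8 in WT MEFs, 3.33% (1.45 to 6.46). All 8 had the larger covered share in KO. In KO only it was called at 172 genes, 71.7% (65.5 to 77.3), against 22.9% of all autosomal genes, and in WT only at 0 of 240, against 0.293%. Promoters with Pol II in both libraries had H2Bub1 at 94.0% in KO and 57.0% in WT, promoters losing Pol II at 18.9% and 9.77%, and promoters without Pol II at 10.1% and 4.76%. The gained genes thus had a WT share near that of promoters without Pol II, and a KO share between those without it and those with it in both libraries.

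The H2Bub1 of these genes was thin. It covered a median of 9.58% of the body (6.36 to 12.0) over all 240 and 18.4% over the 180 with a peak, against 54.9% over the genes with Pol II in both libraries and a peak. Its median fold was 2.41 (2.35 to 2.53), against 3.53 there. In 120 of the 180 genes the fold was below 2.69, the level that 95% of the WT H2Bub1 peaks exceed, and the same held for 19.3% of the genes with Pol II in both libraries. A WT mark of that fold would rarely have been in the WT list, and the part of this floor in the KO-only calls was not tested. With a gene call at 10% of the body, the KO-only share was 47.5% for these genes and 28.9% for all. With peaks of a -log10 q of at least 3 it was 47.9% and 43.7%, which are close to each other, while promoters with Pol II in both libraries stood at 77.5%.

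**Figure D4:**
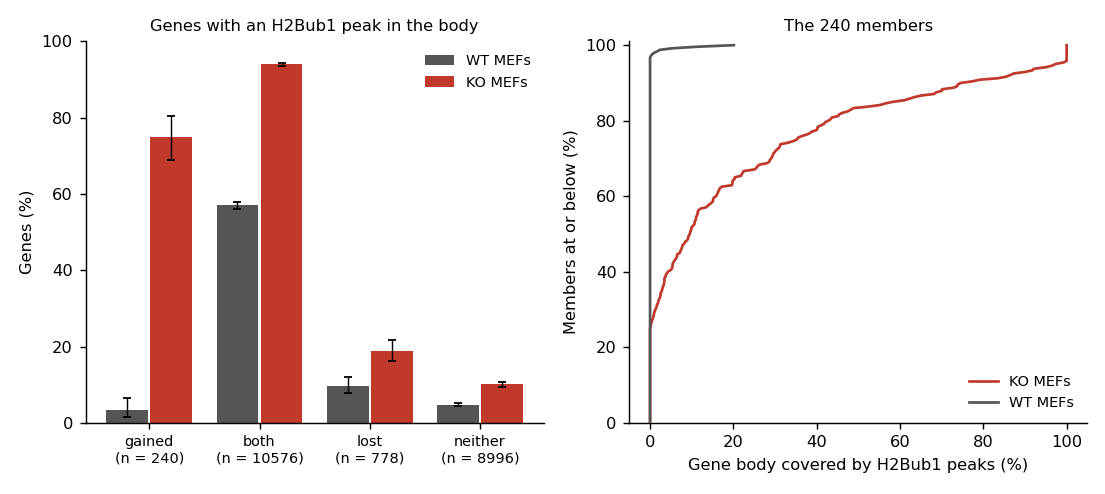
Left, percent of genes with an H2Bub1 peak in the body in WT and KO MEFs for promoters gaining Pol II, with Pol II in both libraries, losing it, or in neither; error bars are exact 95% intervals over genes and 1 library stands behind each bar. Right, cumulative percent of the 240 members by the percent of the body that H2Bub1 peaks cover. The gained genes go from 3.33% to 75%, and their KO curve reaches 50% of the genes at a cover of 9.58%.

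Members with the higher Pol II folds had the wider H2Bub1. Of the genes at or above the median Pol II fold 88.3% (81.2 to 93.5) had H2Bub1 in KO MEFs, with a median cover of 19.8% of the body over all of them, and of those under it 61.7% (52.4 to 70.4), with 2.54%. At promoters with Pol II in both libraries and folds of the same ranges the shares were 96.0% and 62.7%. Among the longest marked bodies were Tmem108, with 257 of 279 kb, Gpr39, a zinc-sensing receptor, with 190.1 of 197 kb, Ptk2b, a kinase related to FAK, with 89.6 of 128 kb, and Baiap2l1, with 85.9 of 93.6 kb. WT MEFs had no H2Bub1 on Tmem108, Gpr39 and Ptk2b and 2.32% of the body at Baiap2l1. Among bodies of at least 10 kb, Bnc1, Foxo6, Htr2b and Lrrn4 were covered to 100% and Gdf6 to 97.3%, with 0% in WT for all but Htr2b, which had 11.4%. Htr2b and Gpr39 had promoter folds of only 3.74 and 6.34, so the widest marks were not only at the strongest promoters. Of the mesothelial genes among the members, Tcf21 and Upk3b were also covered to 100%, Rspo1 to 95.1%, Wt1 to 79.1% and Upk1b to 58.3%, while Gpm6a was covered to 11.0%, Aldh1a2 to 9.61% and Muc16 to 5.43%, and Nkain4 had none in either library.

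In mESCs most of these genes lacked promoter Pol II. A promoter peak was called at 44 of 240 in WT mESCs, 18.3% (13.6 to 23.8), and at 36 in KO mESCs, 15.0% (10.7 to 20.2). For promoters with Pol II in both MEF libraries the WT mESC share was 64.0%, for promoters losing it 17.7% and for promoters without it 3.84%. Among the highest WT mESC folds were those of Tfcp2l1, a pluripotency factor, with 12.4 in WT and 16.6 in KO, Mreg with 11.2 and 9.23, Rpp25 with 6.66 and 11.4 and Spint2 with 5.99 and 4.23. Peaks in both mESC libraries were found at 24 of the 240 genes, against 5663 of all 20807 autosomal genes. The higher fold was in KO at 16 of the 24 (66.7%), against 52.2% of the 5663. The median fold of the whole list was 3.73 in WT and 4.12 in KO mESCs, so these folds are relative to each list. A KO mESC peak with no WT mESC peak within 5000 bp was present at 12 of the 240, 5.00% (2.61 to 8.57), against 4.28% of all genes. The reverse held at 19, 7.92% (4.83 to 12.1), against 7.12%. Both shares are near those of all genes.

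H2Bub1 was called at more of these genes in mESCs than promoter Pol II, but the calls are unlike. An H2Bub1 call needed 1 bp anywhere in the gene, and a Pol II call a peak within 1000 bp of the TSS. A body peak was called at 123 genes in WT mESCs, 51.2% (44.7 to 57.7), and at 145 in KO mESCs, 60.4% (53.9 to 66.6), compared with 55.7% and 62.1% of all autosomal genes. It was KO only at 35 genes, 14.6% (10.4 to 19.7), against 9.53% of all, and WT only at 13, 5.42% (2.92 to 9.08), against 3.13%. The covered share was larger in KO at 122 genes and in WT at 35. Neither promoter Pol II nor H2Bub1 was called in either mESC library at 80 of the 240 genes, 33.3%, against 4.78% of promoters with Pol II in both MEF libraries, 38.2% of those losing it and 68.0% of those without it. In KO MEFs H2Bub1 was called at 55 of these 80 genes, 68.8%, near the 75% of all 240.

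**Figure D5:**
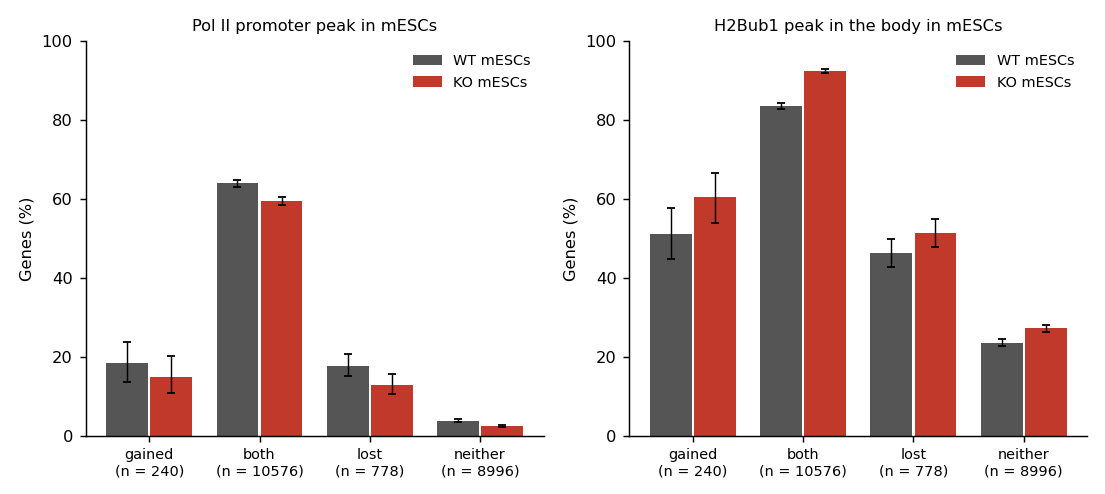
Percent of genes with a Pol II promoter peak (left) and with an H2Bub1 peak in the body (right) in WT and KO mESCs, for promoters gaining Pol II in KO MEFs, with Pol II in both MEF libraries, losing it, or in neither; error bars are exact 95% intervals over genes and 1 library stands behind each bar. The gained promoters (18.3% and 15.0% with Pol II) stand near the lost ones and far under those with Pol II in both MEF libraries.

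The RefSeq table of promoters held an entry for 168 of the 240 genes, with the start within 100 bp of the GENCODE start for 123. Upk1b, Wt1, Adgre1 and Csf1r were not among them. The median C and G content was 61.0% and the median CpG content 0.586 of that expected, against 0.614 for all matched autosomal genes, 0.799 for promoters with Pol II in both MEF libraries, 0.575 for those losing it and 0.225 for those without it. The GC box letters GGGCGG were found at 59.5% (51.7 to 67.0), compared with 48.8% of the 15703 autosomal protein-coding genes matched in the same way, 35.7% of all 32851 promoters of the table and 68.9% of promoters with Pol II in both libraries. GGAATG was found at 20.8% (15.0 to 27.8), against 13.1% of the matched genes and 14.7% of the table. The next shares are for the members, the matched genes and the table, in that order. TGANTCA, the AP-1 letters, stood at 9.52% (5.54 to 15.0), 7.02% and 7.81%. TATAAA on the gene strand stood at 7.74%, 8.63% and 8.32%, and at 20 to 40 bases before the start at 2.98%, 2.83% and 1.99%. AACNNGTT, the Grainyhead letters, stood at 3.57%, 4.16% and 4.2%. TGACNNNGC stood at 11.9%, 13.4% and 12.4%, and AGATAA, the GATA letters, at 8.33%, 9.54% and 11.2%. All except TATAAA were searched on both strands, and the 7 motifs may overlap each other. A match is a run of letters and says nothing of binding.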

How the data were processed

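The deposited files are MACS2 peak lists of single ChIP-seq libraries, narrow for Pol II and broad for H2Bub1. The submitters' processing notes name Bowtie 1.0.0 and MACS2 2.1.1.20160309 with the build mm10, and the authors' reads were 50 bp and single-end. Their methods scale H2Bub1 by size factors over intergenic regions and Pol II by mapped reads. How the scaling entered the calls, the control and the thresholds are not given in the sources used here. The deposited fold of a peak is a linear ratio of pileup to local background, and it is relative to each library, so WT and KO folds set side by side are list values and not absolute changes. The authors also give the -log10 p and -log10 q of each peak and, in the narrow lists, the distance of the summit from the peak start as another number. The read depth behind a list is unknown, and a deeper library yields more and wider peaks.

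Of 16 labelled samples, 8 were used here. Coordinates were made 1-based and set against GENCODE M21 (GRCm38), with the TSS taken from the gene record. A Pol II promoter call needed 1 bp of peak within 1000 bp of the TSS, a Pol II body call 1 bp from 1000 bp after the TSS on, and an H2Bub1 call 1 bp in the gene. The highest fold in the window is given. The members and the 14 lists were chosen with earlier results of these data known. Genes were named by rule: the 10 highest KO folds, the 5 longest and 5 widest H2Bub1 covers, the 5 widest Pol II covers, the 5 highest WT mESC folds, members on a list or in a symbol family with at least 3 members, members losing Pol II in KO mESCs, and the 3 genes on either side of the distance condition. Some items that these rules name are not reported here. Other names are given as chosen after their values were seen or as examples of a list. The overlap functions were tested on simulated peaks. The alternatives tried were a -log10 q of at least 3, WT peaks reduced to the number of KO peaks, a window from 100 bp before to 300 bp after the TSS, WT distances of 1000 and 10000 bp, WT peaks at any annotated start, summits inside the window, genes at least 5000 bp apart, 1 gene per KO peak, an H2Bub1 call at 10% of the body, H2Bub1 peaks of a -log10 q of at least 3, a body from 2000 bp, a body from 5000 bp without the promoter peak, and mESC peaks within 5000 bp. A percent or median counts as unchanged within the 95% interval of the main value, and a count within 1.5 times. Promoter bases came from RefSeq, matched by symbol and nearest start. Computing used Python 3.11.15, pandas 2.3.3, numpy 2.4.6, scipy 1.17.1 and matplotlib 3.10.9.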

Additional observations from a re-analysis of the deposited data

Results flagged for a closer look

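At 19 of the 240 promoters the call went in opposite directions in the 2 cell types, with Pol II gained in KO MEFs and present in WT mESCs but with no KO mESC peak within 5000 bp. They are 7.92% of the 240, against 7.12% of all autosomal genes with that mESC call. The difference was not tested, since each group has 1 library. The WT mESC folds were 4.02 at Cds1, 3.86 at Kank1, 3.69 at Pou3f1, 3.64 at Adcyap1r1, 3.58 at Cnih3, 3.5 at Gpha2, 3.43 at Nppb, 3.36 at Prkcz, 3.30 at Hook1, 3.24 at Arhgap45, 3.19 at Fmnl1, 3.12 at Dpp4, 3.11 at both Fam187b and Lsr, which share a peak, 3.08 at Cited4, 3.05 at Celsr1, 2.91 at Rab11fip1, 2.79 at P2rx7 and 2.40 at Lpl. Cds1 and Kank1 lie above the median fold of the WT mESC list, which was 3.73, and the others below it.

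H2Bub1 went in opposite directions at 9 members, with a body peak in KO only in MEFs and in WT only in mESCs. They are 3.75% of the 240, against 0.529% of all autosomal genes, and KO-only H2Bub1 in MEFs, which the combination needs, was itself at 71.7% of the 240 and 22.9% of all. This difference was not tested either. The covered percent in WT mESCs was 14.3 at Upk3b, 7.31 at Rgl3, 4.59 at Hpgds, 3.90 at Cd300a, 2.29 at Arap3, 2.08 at Itga10, 1.85 at Cplx2, 1.49 at Fam187b and 0.430 at Rasgrf2.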

How the results depend on the processing

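With 1 library per group no library could be left out. No paired analysis was possible because each group has 1 library and no result comes from a test. The number of gained promoters was 125 when only genes at least 5000 bp apart were counted and lay between 207 and 314 under the other alternatives, against 240. With such isolated genes, H2Bub1 in the KO MEF body was called at 80.8%, in KO only at 78.4%, and the median KO fold was 4.85. With a gene call at 10% of the body the shares were 48.3% in KO MEFs, 47.5% in KO MEFs only and 25% in WT mESCs, and with H2Bub1 peaks of a -log10 q of at least 3 they were 48.8% and 47.9% in KO MEFs. Body Pol II in KO MEFs was called at 37.9% from 2000 bp on, and at 32.4% from 5000 bp on without the promoter peak, an alternative added after seeing the data. These stricter calls cover less sequence by construction. The share with a promoter peak in WT mESCs stayed between 16.2% and 23.2%, within its interval. Genes of the mesothelial list among the members numbered 8 to 12, of the epithelial list 3 to 6 (3 among isolated genes) and of the macrophage list 1 to 6 (1 among isolated genes, 2 with WT peaks at any start barred), counts that were added after seeing the data, as was the alternative with 1 gene per KO peak. In all, 8 peak lists of unknown read depth limit what a missing peak shows.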

Other observations

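Genes with a KO peak in both cell types and no WT peak within 5000 bp in either were 12 of the 240: Gca with 4.73-fold in KO mESCs, Neil3 with 4.53, Adap1 with 4.42, Arhgef26 with 4.14, Grhl1 with 4.08, Elovl7 with 3.91, Zdhhc23 with 3.66, Bicdl1 with 3.55, Igsf9 with 3.55, Car2 with 3.35, Erc2 with 3.24 and 9330182L06Rik with 3.07. They share no list apart from the epithelial Grhl1 and the lipid enzyme Elovl7, and apart from 9330182L06Rik they had under 5-fold in KO MEFs.

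By chromosome, the gained promoters ranged from 2 of 664 genes on chromosome 16 (0.301%), of which 1 is Upk1b, to 19 of 1004 on chromosome 3 (1.89%).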
